A study of Bos taurus with 8 samples.

Results

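A set of 10 regulators of uterine receptivity, the state in which the endometrium can accept an embryo, were followed in the day 7 endometrium of 8 cows. They are the homeobox genes MSX1 and MSX2, the gland transcription factor gene FOXA2, the hedgehog ligand gene IHH, the WNT ligand genes WNT4, WNT5A and WNT7A, the growth factor gene BMP2, and LIF with its receptor gene LIFR. All array probes that carry one of these names were taken, whatever their values. This gave 20 of the 43653 noncontrol probes and 10 of the 17430 gene symbols on the array. A probe was tested if at least 4 of the 8 arrays had it well above background, which held for 15 of the 20 probes and for 8 of the 10 genes. LIF and WNT4 had no such probe.

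These genes act between the compartments of the uterus. Work in mice places MSX1 in the epithelium before implantation and FOXA2 in the glands, whose secretions include the cytokine LIF, read by the receptor LIFR with gp130. IHH is a progesterone-induced signal from the epithelium to the stroma, received by PTCH1 and answered through GLI and NR2F2. BMP2 and WNT4 serve the stroma around an implanting embryo, and WNT5A and WNT7A take part in patterning the epithelium and forming glands.

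Each uterine horn of a cow received 25 mL of fluid on day 1 after standing estrus. The fluid contained 5 mM methylglyoxal (MGO), a dicarbonyl compound that forms during glycolysis and modifies proteins, for 4 cows and no methylglyoxal (0 mM) for the other 4. On day 7 a biopsy of endometrium was taken from the horn next to the ovary with the corpus luteum, and the RNA of each cow was hybridised to its own one-colour array. The labels give no breed, age or parity, and both groups received an infusion, so no cow here was left uninfused. Each value is the log2 signal of a probe minus the log2 75th percentile of its array. A difference is the 5 mM mean minus the 0 mM mean, and group means carry the SD over 4 cows. Levels of different probes cannot be compared with each other.

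Over the whole array, 0 of 31108 tested probes (0%) had an adjusted p under 0.05 in limma's test with Benjamini-Hochberg adjustment, 595 (1.91%) had an unadjusted p under 0.05, and 16525 (53.1%) had a difference above 0. One biopsy stood apart, that of the cow labelled 5 mM replicate 1. Its mean over 14 epithelium markers, each centred on its mean over the 8 arrays, was -3.42, against 0.28 to 0.88 in the other 7 cows. Its mean over 13 smooth muscle markers was 2.33. Of them 11 were at least 2-fold above the median of the other cows, as were 1278 of all 13078 genes. The smooth muscle means were also high in 0 mM replicate 1 (1.19) and 5 mM replicate 3 (1.32), and lay between -1.49 and -0.72 in the other 5 cows. The epithelium marker EPCAM was at -1.26 in 5 mM replicate 1 and at 4.33 to 4.83 elsewhere, still well above background, while CLDN3, GRHL2 and SPINT1 were not well above background there. In the other 7 cows all 14 epithelium markers were well above background. The group differences of the measured genes are therefore given with and without this cow. A signal not well above background on an array is an upper bound. It entered group means as measured, and where it stands against the other cows the bound is given, taken from the lowest signal well above background on its array or from its own signal if that was higher. In a bulk sample, fewer cells of a type and less RNA per cell cannot be told apart.

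By their first probes, the 8 measured genes split in that biopsy. MSX1, IHH, FOXA2 and WNT7A were far below the median of the other cows. MSX2, BMP2 and LIFR were not lower, and WNT5A was 1.76-fold lower. Other probes blur this split, since the second FOXA2 probe was 1.23-fold lower there and the second WNT5A probe 4.75-fold lower. That FOXA2 probe was dimmer than the first, with a median of -4.67 against -2.60 in the other cows. It had less room to fall before background. WNT7A was at least 4.37-fold lower, but was not well above background in 0 mM replicate 1 either. Of the 8, 3 had a higher mean in the 5 mM group (MSX2, BMP2 and LIFR), where 53.1% of all tested probes did. None of the 8 passed the adjusted threshold, where 0% of tested probes did, and 0 had an unadjusted p under 0.05, where 1.91% did. For 0 of the 8 genes did the 4 values of one group lie wholly outside those of the other, which happened for 1.51% of the 30839 probes with a value on every array.

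**Figure D1:**
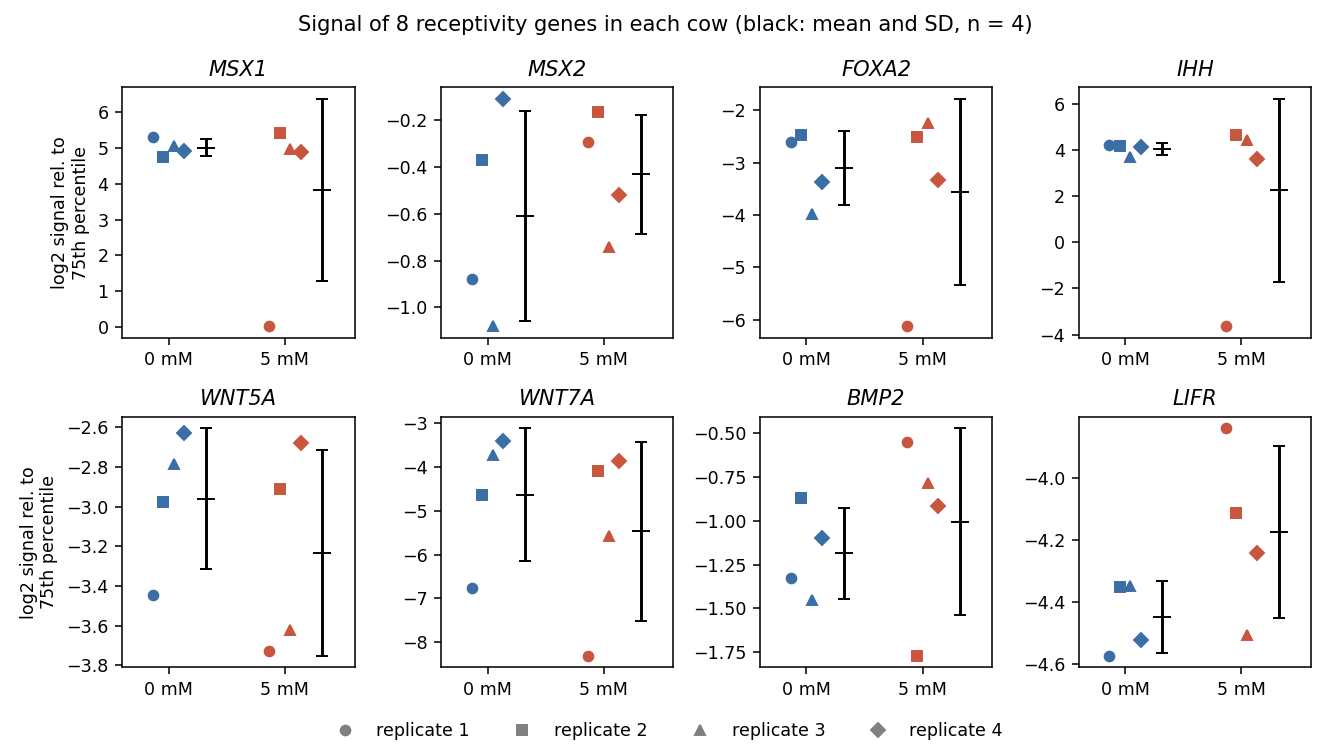
Log2 signal relative to the 75th percentile of the array (vertical axis, a separate scale for each gene) of the first probe of 8 genes in 4 cows given 0 mM (blue) and 4 given 5 mM MGO (red); marker shapes are replicate numbers, and black bars are the mean and SD of 4 cows. In MSX1, FOXA2 and IHH the red circle, 5 mM replicate 1, lies far below the other 7 cows, and in every gene the ranges of the groups overlap.

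The probe sequences show which stretch of each transcript was read, and are given where the probes of a gene overlap, differ in their behaviour or cannot be read as that gene. All are printed 5′ to 3′, and coordinates are those of the array files on the HGSC Btau_3.1 build. All 20 probes lie on the chromosome that RefSeq (assembly ARS-UCD2.0) gives for their gene. The MSX1 probes at chr6:108688850-108688908 and chr6:108688878-108688937 (plus strand) share the run below, so they are not independent readings. The first IHH probe, at chr2:111402275-111402334 (minus strand), has the hexamer AATAAA, a common polyadenylation signal marked in capitals, close to its end, and its last 30 bases are shown. This hexamer stands in 9.35% of all 43653 probes on the printed strand and in 12.5% on either strand, and in 1 of the 20 probes here. The second IHH probe lies at chr2:111408005-111408064 (minus strand). The first FOXA2 probe, at chr13:41723120-41723179 (minus strand), ends with a stop codon in capitals, and the second lies at chr13:41723915-41723974 (minus strand).
MSX1, run shared by both probes: ggtggctctcaagattccctttggaaggg
IHH, end of the first probe: ttggtcttttcttccttttgtAATAAAaat
IHH, second probe: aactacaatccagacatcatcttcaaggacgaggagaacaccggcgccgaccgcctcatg
FOXA2, first probe: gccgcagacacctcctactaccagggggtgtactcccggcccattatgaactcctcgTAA
FOXA2, second probe: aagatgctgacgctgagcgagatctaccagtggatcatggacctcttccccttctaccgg

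MSX1 encodes a homeobox repressor of the uterine epithelium. Its first probe read 5.31, 4.73, 5.06 and 4.91 in 0 mM replicates 1 to 4 and 0.02, 5.42, 4.96 and 4.89 in 5 mM replicates 1 to 4. Of the 8 cows, 7 lay within 4.73 to 5.42, and 5 mM replicate 1 stood at -4.94 relative to their median, a 30.6-fold lower signal. Of the 31108 tested probes, 342 were as far down in that biopsy. The group means were 5.00 ± 0.24 and 3.82 ± 2.54, a difference of -1.18 ± 1.11 (SE; limma adjusted p = 0.913). Without 5 mM replicate 1 the difference was 0.085 ± 0.20. The second MSX1 probe read -0.26 in that cow and 4.42 to 4.98 in the others, and its difference went from -1.24 to -0.01 when the cow was left out. In that biopsy the epithelium markers were low together with MSX1, and their part in its value was not tested.

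MSX2, the paralogue of MSX1, was not low in that biopsy. Its probe (chr20:6609002-6609061, plus strand) read -0.88, -0.37, -1.08 and -0.11 in the 0 mM cows and -0.29, -0.17, -0.74 and -0.52 in the 5 mM cows. The highest and the lowest of the 8 values were both in 0 mM cows, and 5 mM replicate 1 lay 0.23 above the median of the others. The means were -0.61 ± 0.45 and -0.43 ± 0.25, a difference of 0.18 ± 0.25 (SE; limma adjusted p = 0.914), smaller than the spread between cows of a group, and of 0.13 ± 0.27 without 5 mM replicate 1. Without 0 mM replicate 3 or 4 it was 0.02 or 0.35.

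FOXA2 is required for uterine glands in mice. Its first probe read -2.60, -2.47, -3.97 and -3.37 in the 0 mM cows and -6.13, -2.51, -2.24 and -3.33 in the 5 mM cows. The lowest value, in 5 mM replicate 1, was not well above background, and was at least 11.6-fold below the median of the other 7 cows. The means were -3.10 ± 0.70 and -3.55 ± 1.78, a difference of -0.45 ± 0.84 (SE; limma adjusted p = 0.928), which turned to 0.41 ± 0.43 without that cow. Among the other 7 cows FOXA2 also varied more than most probes, with an SD of 0.63 that 13.5% of tested probes exceeded.

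The second FOXA2 probe gave a different picture of the same biopsy. It read -4.57, -4.67, -5.31 and -4.92 in the 0 mM cows and -4.97, -4.55, -4.26 and -4.94 in the 5 mM cows, so 5 mM replicate 1 stood at only -0.30 relative to the median. The median of the other cows was -4.67, and the lowest signal well above background on that array was -6.21. A gap as wide as that of the first probe could not have been measured above background. Both probes placed 5 mM replicate 3 highest, and among the other 7 cows both placed 0 mM replicate 3 lowest. The second probe differed by 0.19 ± 0.23 (SE; limma adjusted p = 0.913), the opposite sign to the first, and by 0.28 without that cow. The remaining FOXA2 probe (chr13:41724359-41724418, minus strand) was well above background on 1 array and was not tested.

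IHH, the hedgehog ligand of the progesterone-primed epithelium, had the widest range among the measured genes. Its first probe read 4.23, 4.21, 3.70 and 4.12 in the 0 mM cows and -3.65, 4.67, 4.43 and 3.64 in the 5 mM cows. In 7 cows the signal lay between 3.64 and 4.67, and in 5 mM replicate 1 it was 231-fold lower than their median, though above background. Only 0.0579% of tested probes were as far down in that biopsy. The means of 4.06 ± 0.25 and 2.27 ± 3.97 differed by -1.79 ± 1.73 (SE; limma adjusted p = 0.913), and by 0.18 ± 0.27 without that cow.

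The second IHH probe, whose sequence is given above, was lowest in the same cow but by much less. It read -4.44, -3.98, -5.30 and -4.18 in the 0 mM cows and -5.62, -3.52, -4.00 and -4.77 in the 5 mM cows. It stood at -1.43 relative to the median of the others (2.70-fold lower), and the next lowest value, -5.30, was in a 0 mM cow. The median of the others was -4.18, and the lowest signal well above background on that array was -6.21. This dim probe could therefore not show a gap as wide as that of the first. Its group difference was -0.0022 ± 0.48 (SE), and 0.38 ± 0.40 without that cow. Both IHH probes were highest in 5 mM replicate 2.

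**Figure D2:**
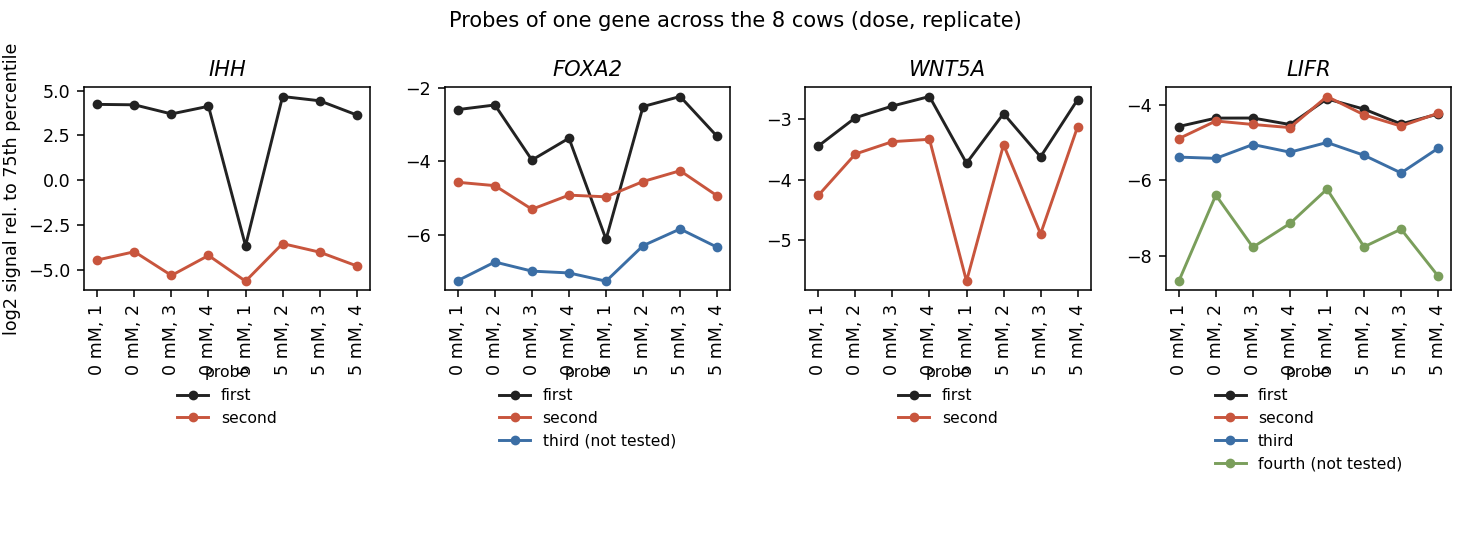
Log2 signal relative to the 75th percentile (vertical axis, a separate scale for each gene) of every probe of IHH, FOXA2, WNT5A and LIFR across the 8 cows (horizontal axis, dose and replicate number), lines joining the values of 1 probe only to guide the eye. In 5 mM replicate 1 the first probe of IHH is at -7.85 and that of FOXA2, not well above background there, at -3.53 or lower relative to the median of the other cows, and their second probes are at -1.43 and -0.30, while the first and second LIFR probes are at their highest.

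Of 14 other genes listed for hedgehog reception and response 10 were measured, 6 higher and 4 lower in the 5 mM group, with a median difference of 0.07 against 0.01 over all 13078 genes. The median was -0.03 without 5 mM replicate 1. None passed the adjusted threshold. NR2F2, a stromal mediator of the progesterone response, had the lowest unadjusted p of the list, with a difference of 0.44 ± 0.27 (SE). In 5 mM replicate 1 NR2F2 stood at 1.09 relative to the median of the other cows, and without that cow its difference was 0.20. By their first probes PTCH1 and GLI1, the usual transcriptional targets of hedgehog signalling, stood at -4.42 or lower and at -3.13. PTCH1 was not well above background there, and another PTCH1 probe stood at -2.02 as measured. PTCH1 and GLI1 were singled out after their values were seen. Of the 10 measured genes, 3 were at least 2-fold lower in that biopsy, where 17.5% of all genes were. At least 2-fold higher were 4 of the 10, and 1278 of all 13078 genes. Without that cow the differences of PTCH1 and GLI1 were 0.31 and -0.02.

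Of the WNT ligand genes, WNT5A signals mainly outside the beta-catenin route. Its first probe (chr22:46592073-46592132, plus strand) read -3.44, -2.98, -2.79 and -2.63 in the 0 mM cows and -3.73, -2.91, -3.62 and -2.68 in the 5 mM cows. The 3 lowest values were in 0 mM replicate 1 and 5 mM replicates 1 and 3, the 3 cows with high smooth muscle means. The difference of -0.28 ± 0.29 (SE; limma adjusted p = 0.913) was within the spread of the groups, -2.96 ± 0.35 and -3.24 ± 0.52. It was -0.11 without 5 mM replicate 1.

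The second WNT5A probe (chr22:46582066-46582125, plus strand) read -4.26, -3.58, -3.37 and -3.33 in the 0 mM cows and -5.67, -3.42, -4.89 and -3.13 in the 5 mM cows. It put the same 3 cows lowest and spread them further, with 5 mM replicate 1 at -2.25 relative to the median of the others, against -0.82 for the first probe. Its difference was -0.64 ± 0.57 (SE), and -0.18 without that cow. Smooth muscle markers were high where WNT5A was low, in cows of both groups, and their part in its values was not tested.

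WNT7A, which marks the luminal epithelium in mice, has 1 probe on the array. The 60 bases of the probe span 41710 bases of the build, chr22:59872005-59913714 (plus strand), so the match is split over distant blocks. It is shown because the values of the gene rest on it alone.
WNT7A, probe: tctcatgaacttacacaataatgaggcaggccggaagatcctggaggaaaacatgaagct
It read -6.77, -4.63, -3.72 and -3.41 in the 0 mM cows and -8.32, -4.09, -5.59 and -3.87 in the 5 mM cows. Replicate 1 of either group was not well above background, so those 2 values are bounds only. The level in 5 mM replicate 1 was at least 4.37-fold below the median of the other 7 cows, measured from the lowest signal well above background on its array.

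The same 3 cows as for WNT5A were lowest. WNT7A was also the most variable of the 8 genes without 5 mM replicate 1, with an SD over the other 7 cows of 1.20 that 3.12% of tested probes exceeded. This SD takes in the value of 0 mM replicate 1 (-6.77) as measured, though it was not well above background and is only a bound. The means of -4.63 ± 1.52 and -5.47 ± 2.05 differed by -0.83 ± 1.11 (SE; limma adjusted p = 0.913) with the bounds entered as measured, and by 0.12 ± 0.84 without 5 mM replicate 1.

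**Figure D3:**
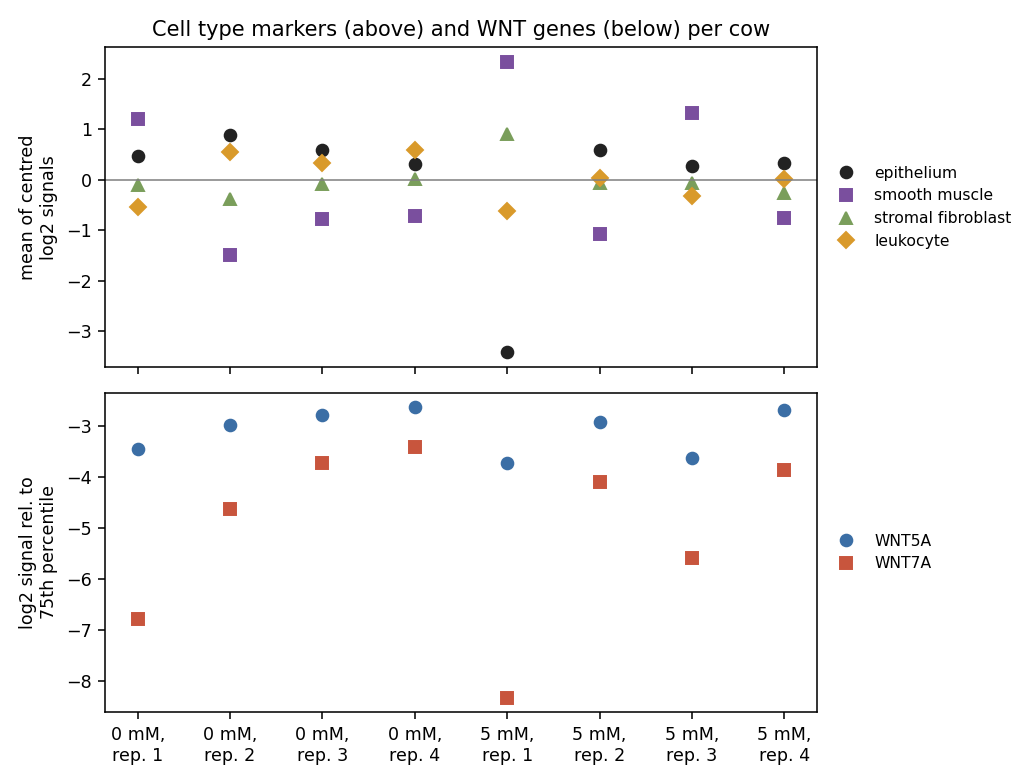
Upper panel: mean of the centred log2 signals of 14 epithelium, 13 smooth muscle, 10 stromal fibroblast and 9 leukocyte markers in each of the 8 cows; lower panel: log2 signal relative to the 75th percentile of the first probes of WNT5A and WNT7A in the same cows. WNT5A and WNT7A are lowest in 0 mM replicate 1 and 5 mM replicates 1 and 3, where smooth muscle means are 1.19 to 2.33, and only 5 mM replicate 1 has a low epithelium mean (-3.42).

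WNT4, a stromal WNT ligand gene, could not be followed. Its only probe (chr2:135197043-135197102, plus strand) carries the name in its description alone, and was well above background on 1 of 8 arrays, that of 5 mM replicate 1. A stretch of 30 bases is shown because it can fold on itself, the capitals marking the arms of an inverted repeat of 8 bases around 1 base.
WNT4, part of the probe: ccccggtCCCAATTTtAAATTGGGggaccc
Such a repeat occurs in 1.06% of the probes of the array. The signals were -6.89, -7.38, -7.17 and -6.64 in the 0 mM cows and -5.93, -6.54, -6.75 and -6.59 in the 5 mM cows, overlapping between groups and near background, so no fold is given.

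The other WNT ligand genes were lower together in 5 mM replicate 1. Of 15 listed, 7 were measured, and all 7 (WNT2, WNT2B, WNT5B, WNT8B, WNT10B, WNT11 and WNT16) had a lower mean in the 5 mM group, with a median difference of -1.30 against 0.01 over all genes. None passed the adjusted threshold and none had an unadjusted p under 0.05. In that biopsy 6 of the 7 were at least 2-fold below the median of the other cows, WNT16 being the exception, where 17.5% of all genes were. Of these 6, WNT5B, WNT8B, WNT10B and WNT11 were not well above background there and are at least 2-fold lower by their bounds. Without that cow the median difference of the list was -0.22, and it was -0.24 to -0.52 with no filter, normexp, array weights or the filter on all 8 arrays.

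WNT10B and WNT2 had the lowest unadjusted p of these ligands. WNT10B read -2.29, -1.22, -0.77 and -1.13 in the 0 mM cows and -7.85, -1.60, -3.00 and -1.29 in the 5 mM cows. WNT2 read -0.23, 0.75, 2.01 and 1.51 against -5.59, 1.00, -0.54 and 1.07. Both put the same 3 cows lowest as WNT5A and WNT7A did. The WNT10B value of -7.85 was not well above background and is a bound. Their differences were -2.08 ± 1.35 and -2.02 ± 1.43 (SE), and -0.61 and -0.50 without 5 mM replicate 1.

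The reception and the inhibition of WNT signals showed no such common direction. Of 15 listed receptor and co-receptor genes 12 were measured, 8 higher and 4 lower in the 5 mM group, with a median of 0.03. FZD8, a frizzled receptor gene, differed by 0.87 ± 0.67 (SE), and by 0.20 without 5 mM replicate 1, where it stood at 3.01. FZD10, which had the next lowest unadjusted p, was well above background on 1 of the 4 arrays of the 5 mM group, and no size is given for it. Of 12 secreted inhibitor genes 10 were measured, 5 in each direction, with a median of 0.0033. SFRP2, a secreted frizzled-related decoy, read 1.45, 0.08, 0.14 and 0.05 in the 0 mM cows and 3.62, 0.50, 2.16 and 0.37 in the 5 mM cows. FRZB, a decoy of the same family, read -0.88, -4.57, -4.32 and -3.98 against 0.50, -3.14, 0.66 and -4.20. Both were highest in the 3 cows in which WNT5A and WNT7A were lowest, which are those with high smooth muscle means, whose part in these values was not tested. They differed by 1.23 ± 0.74 and 1.89 ± 1.32 (SE), and by 0.58 and 1.21 without 5 mM replicate 1.

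Of 15 genes of the beta-catenin route and its targets, 14 were measured, 6 higher and 8 lower, with a median of -0.16 that became 0.05 without 5 mM replicate 1. NKD1, a feedback inhibitor, differed by 0.61 ± 0.35 (SE), and TCF7L2, a transcription factor of the route, by 0.73 ± 0.52. Without 5 mM replicate 1 these were 0.85 and 0.21. CTNNB1, which encodes beta-catenin, differed by 0.01, and by -0.06 without 5 mM replicate 1. LEF1 stood at -4.75 relative to the median of the others in that cow. CTNNB1 and LEF1 were singled out after their values were seen. None of the WNT receptor, inhibitor or beta-catenin genes passed the adjusted threshold or had an unadjusted p under 0.05.

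BMP2, a growth factor gene of the stroma, was not low in 5 mM replicate 1. Its first probe (chr13:49402209-49402268, plus strand) read -1.33, -0.87, -1.45 and -1.10 in the 0 mM cows and -0.56, -1.77, -0.78 and -0.91 in the 5 mM cows. The highest and the lowest value were both in 5 mM cows, replicates 1 and 2. The means were -1.19 ± 0.26 and -1.01 ± 0.53, a difference of 0.18 ± 0.28 (SE; limma adjusted p = 0.918), and of 0.03 without 5 mM replicate 1. The second probe (chr13:49401069-49401128, plus strand) differed by 0.18 ± 0.16 (SE), and by 0.10 without 5 mM replicate 1, but put the lowest value in 0 mM replicate 1 (-5.14), not in 5 mM replicate 2 (-4.76).

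Of the other BMP ligand, receptor and SMAD genes, 12 of 14 were measured, 4 higher and 8 lower, with a median of -0.08. BMPR1A, the type I receptor gene for BMP2, differed by 0.37 ± 0.27 (SE) and by 0.16 without 5 mM replicate 1. ACVRL1, a type I receptor gene of endothelium, differed by -0.25 ± 0.19 (SE) and by -0.33 without that cow. The other ACVRL1 probes differed by -0.07 and 0.11, so its probes did not give 1 direction. Of 12 BMP target and antagonist genes 7 were measured, 1 higher and 6 lower, with a median of -0.70 that became -0.15 without 5 mM replicate 1 and -0.18 to -0.25 with normexp, no filter or array weights. One of them, ID3, a target of BMP signalling, had an unadjusted p under 0.05 (114 of 13078 genes did with a higher and 145 with a lower mean), and none passed the adjusted threshold. ID3 read -1.98, -1.51, -2.02 and -2.39 in the 0 mM cows and -3.59, -1.88, -2.96 and -2.85 in the 5 mM cows, so the ranges overlapped through 5 mM replicate 2. Its difference was -0.84 ± 0.36 (SE), and -0.59 without 5 mM replicate 1. NOG, which encodes the BMP antagonist noggin, was well above background on 2 of the 4 arrays of the 5 mM group. Its difference, near background, was -0.95 ± 0.61 (SE), and -0.33 without 5 mM replicate 1.

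LIF was not measured in these biopsies. Its probes (chr17:72761169-72761228 and chr17:72762266-72762325, minus strand) were well above background on 0 of the 8 arrays, with signals of -8.81 to -8.15 and of -9.22 to -7.12. At this sensitivity no difference in LIF was detectable, and no fold is given.

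LIFR, which encodes the receptor subunit that binds LIF, had the least spread of the 8 genes over the 7 cows other than 5 mM replicate 1, with an SD of 0.17. Its first probe (chr20:38194535-38194594, plus strand) read -4.57, -4.35, -4.35 and -4.52 in the 0 mM cows and -3.84, -4.11, -4.51 and -4.24 in the 5 mM cows. In the 5 mM group 3 of the 4 values lay above all of the 0 mM group, and 5 mM replicate 3 lay among the latter. The means were -4.45 ± 0.12 and -4.17 ± 0.28, a difference of 0.27 ± 0.17 (SE; limma adjusted p = 0.913, unadjusted p = 0.148), and of 0.16 ± 0.15 without 5 mM replicate 1.

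The second LIFR probe (chr20:38183598-38183657, plus strand) differed by 0.41 ± 0.20 (SE; limma adjusted p = 0.913, unadjusted p = 0.0761), the lowest unadjusted p among the 15 tested probes of these genes. Its values were -4.89, -4.43, -4.52 and -4.60 in the 0 mM cows and -3.78, -4.26, -4.56 and -4.22 in the 5 mM cows, with the same cow among the 0 mM values, and the difference was 0.26 without 5 mM replicate 1. The third probe (chr20:38194611-38194670, plus strand) differed by -0.05 ± 0.20, so the probes did not give 1 direction. The last LIFR probe (chr20:38194108-38194167, plus strand) was above background on 1 array and was not tested.

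Of 16 other genes of the LIF family and gp130 signalling 9 were measured, 3 higher and 6 lower, with a median of -0.05, and none passed the adjusted threshold or had an unadjusted p under 0.05. IL6R, a receptor gene for interleukin 6, differed by -0.96 ± 0.64 (SE) and by -0.24 without 5 mM replicate 1. JAK1, the kinase gene of gp130 receptors, read 3.25, 3.39, 3.34 and 3.31 in the 0 mM cows and 3.59, 3.40, 3.41 and 3.42 in the 5 mM cows, a difference of 0.14 ± 0.12 (SE). Without 5 mM replicate 1 the difference was 0.09, and the other JAK1 probes differed by 0.12, 0.09 and -0.03. By its first probe JAK1 was the 1 gene of the list whose groups did not overlap, where 215 of 13078 genes did not. The gap between the groups was smaller than the SE.

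**Figure D4:**
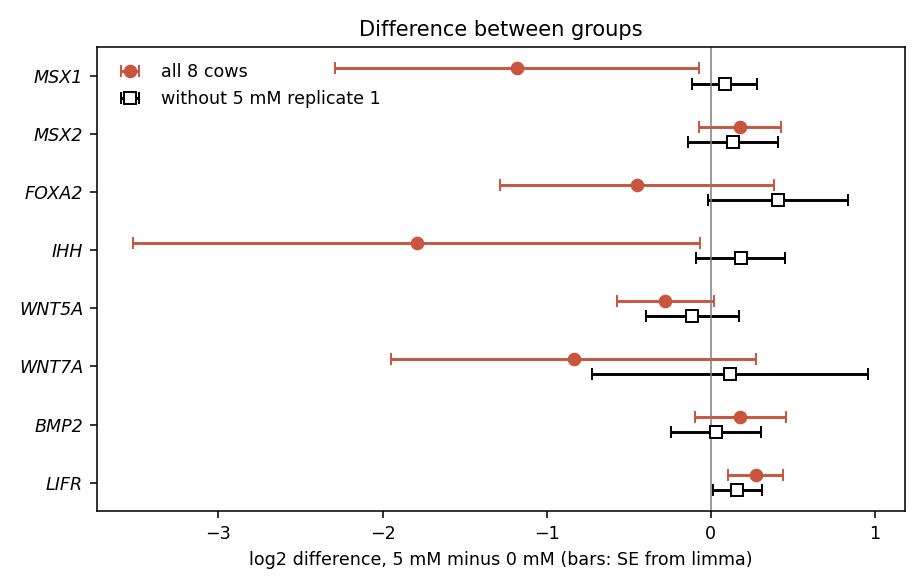
Log2 difference between 5 mM and 0 mM MGO (horizontal axis; bars are the SE from limma) for the first probe of 8 genes with all 8 cows (red circles) and without 5 mM replicate 1 (open squares). MSX1, FOXA2, IHH and WNT7A go from -1.18, -0.45, -1.79 and -0.83 to 0.085, 0.41, 0.18 and 0.12, and the other 4 genes keep their sign.

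Among 17 other transcription factor genes of the receptive uterus 13 were measured, 5 higher and 8 lower, with a median of -0.15. HAND2, a progesterone-responsive stromal factor gene, was the 1 gene of the 13 with an unadjusted p under 0.05, where 1.98% of all genes had one, and none passed the adjusted threshold. It read -2.60, -3.73, -3.19 and -3.88 in the 0 mM cows and -3.78, -3.85, -4.48 and -4.22 in the 5 mM cows, a difference of -0.73 ± 0.31 (SE), and of -0.83 without 5 mM replicate 1. The ranges overlapped through 0 mM replicate 4. ESR1, the oestrogen receptor gene, differed by 0.37 ± 0.21 (SE), and by 0.36 without 5 mM replicate 1. In 5 mM replicate 1 the homeobox genes DLX5 and DLX6 stood at -5.59 and -5.54 relative to the median of the other cows, against -4.94 for MSX1; they were singled out after their values were seen.

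**Figure D5:**
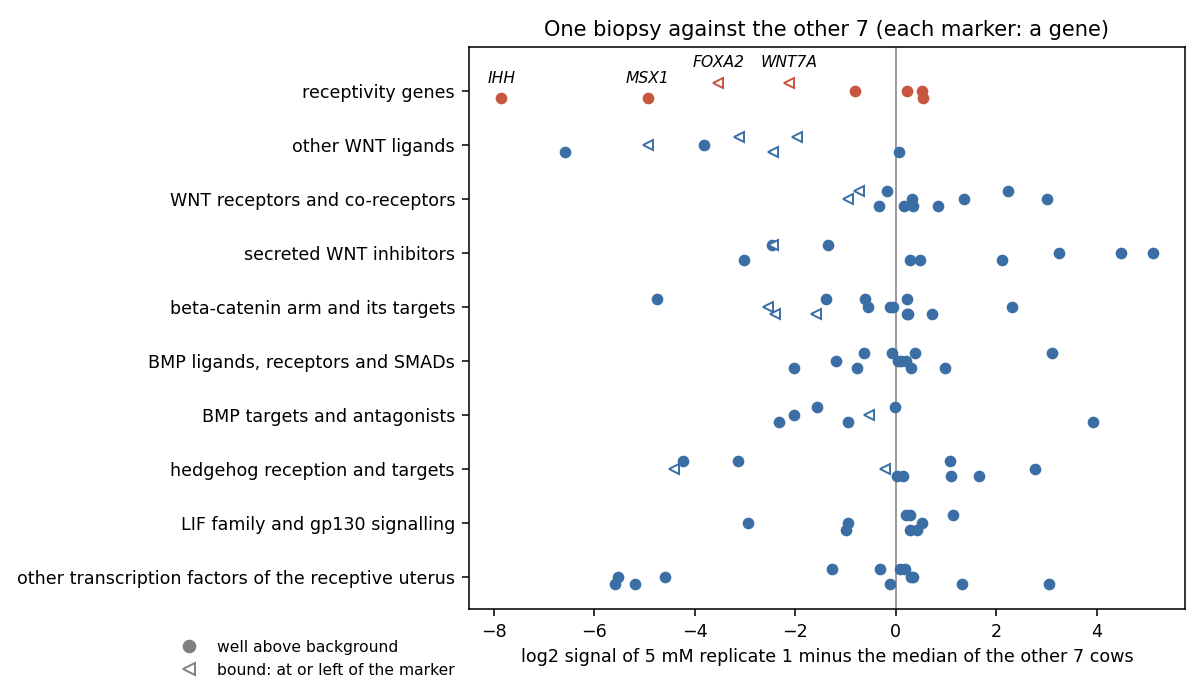
Log2 signal of 5 mM replicate 1 minus the median of the other 7 cows (horizontal axis), by the first probe of each gene. The 8 measured receptivity genes are red and the measured genes of 9 pathway lists blue. Circles are genes well above background in that biopsy, and open triangles are upper bounds for genes that were not. IHH (-7.85), MSX1 (-4.94), FOXA2 (-3.53 or lower) and WNT7A (-2.13 or lower) lie to the left with 6 of the 7 other WNT ligand genes; FZD10, whose bound does not place it, is not drawn.

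In 5 mM replicate 1, 13 of 14 epithelium markers were at least 2-fold lower than the median of the other cows, where 17.5% of all genes were. Their median was -4.02 when the 3 not well above background are put at their bounds. Relative to the median of the other cows they stood between -5.84 and -0.90. The first IHH probe lay outside that range and the second (-1.43) within it, as did both MSX1 probes. The 10 ciliated epithelium markers had a mean of -2.47 in that cow and -0.48 to 0.73 in the others, and the 10 stromal fibroblast markers had 0.91 against -0.39 to 0.02. Leukocyte markers (9 measured) had a mean of -0.62 there and -0.54 to 0.58 elsewhere, and endothelium markers (6 measured) -0.24 and -0.40 to 0.24. The part of these markers in the values of the receptivity genes was not tested.

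The slides of the arrays gave a further reading. On slide 1 were the 2 arrays numbered replicate 1. The 0 mM replicates 2 and 3 shared slide 2 with 5 mM replicate 2, and the 5 mM replicates 3 and 4 shared slide 3 with 0 mM replicate 4. Within slides 1, 2 and 3 the differences of MSX1 were -5.28, 0.52 and 0.01. Those of FOXA2 were -3.53 or lower, 0.71 and 0.59, and those of IHH were -7.88, 0.72 and -0.09. WNT7A gave 0.09 and -1.32 within slides 2 and 3 and no value within slide 1, where neither array had it well above background, and WNT5A gave -0.28, -0.03 and -0.52. MSX2 (0.59, 0.56 and -0.52) and BMP2 (0.77, -0.61 and 0.25) changed sign between slides, and LIFR (0.73, 0.24 and 0.15) did not. These values have no test, since each slide holds 1 or 2 arrays of a group.

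The genes whose signal followed each receptivity gene most closely were sought among 24783 tested probes, by Pearson's r over the 8 cows and again without the 2 cows farthest from the median of the gene. All genes were read from the same 8 biopsies, whose cell type marker means differed, and with the same scaling, so the coefficients are descriptions. They are the highest found among 24783 probes over few cows. The second coefficient uses some of the same cows that chose the gene, so it is no separate check. IHH went with SPDEF (0.999, and 0.974 without the 2 cows) and DLX6 (0.997 and 0.800), and FOXA2 with PTCH1 (0.992 and 0.918) and BPIFB1 (0.986 and 0.921). MSX1 went with CAMSAP3 (0.995) and TDRP (0.994), but only at 0.604 and 0.194 without 5 mM replicates 1 and 2, so these rest on those cows. WNT5A went with NEFH (0.993 and 0.995) and GATA2 (0.993 and 0.989), and WNT7A with SIK3 (0.993 and 0.958). The PTCH1, DLX6 and GATA2 probes found here are not the first probes of those genes. For MSX2 they were GIT2 (0.951 and 0.875) and UBTF (0.948 and 0.884), for BMP2 ZBTB3 (0.978 and 0.975) and ND4 (0.962 and 0.930), and for LIFR DDX19B (0.962 and 0.800) and TUBG1 (0.954 and 0.748).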

How the data were processed

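The deposited values used are linear spot intensities that Feature Extraction had background-subtracted and detrended but not scaled between arrays. This is per the file headers, which name version 11.5.1.1, while the submitters' processing notes name 10.5.1.1. The 75th percentile of the processed intensity was 1032 to 1456, 68.3% to 73.3% of spots were well above background, and no spot was saturated. The labels assign each sample to a different cow, and 4 arrays in each group limit the precision of every comparison.

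Control spots and outlier-marked spots were left out, spots of the same probe were averaged on the log2 scale, and the log2 of the 75th percentile of the array was subtracted. Groups were compared over all probes well above background on at least 4 of 8 arrays with limma 3.58.1 (lmFit, eBayes) in R 4.3.3 and Benjamini-Hochberg adjustment. For a gene with several tested probes the brightest on average is the first. A signal not well above background on an array has only a bound. The fit was tested on simulated data.

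The series' deposited table of log2 values, used as an alternative, correlated at r of at least 0.9995 with scanner values shifted to the 75th percentile and centred per probe. In replicate order, the medians of its 0 mM columns were -0.016, -0.023, 0.00088 and -0.0062, and those of its 5 mM columns 0.13, -0.0049, -0.011 and 0.013.

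The members, lists and tests were chosen with earlier results of these data known. Named genes are all members, the 2 genes of each pathway list with the lowest unadjusted p and the 2 genes most like each member, and others only where said; the results of 2 genes so named are not reported here. Alternatives were quantile and median scaling, normexp background correction (offset 50), dropping the background filter or asking it of all 8 arrays, trended robust variance, array weights, the deposited table, the mean over probes, slide and replicate blocks, and leaving out each cow.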

Additional observations from a re-analysis of the deposited data

Results flagged for a closer look

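MSX1 and IHH were each marked by 1 cow far from the other 3 of its group. In the 5 mM group the lowest MSX1 value, in replicate 1, was 0.0245, and its gap to the next value took up 0.901 of the range of the group, above Dixon's 95% critical value for 4 samples. The lowest IHH value of the same group, also in replicate 1, was -3.65, with a gap of 0.876 of the range. Chance marks about 1 in 20 groups, and 2 of 16 groups tested were marked. Both come from the biopsy with the epithelium marker mean of -3.42, whose part in these values was not tested.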

How the results depend on the processing

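No probe passed the adjusted threshold under any alternative run, and the number with an unadjusted p under 0.05 was 595, or 376 to 1528 when 1 cow was left out. Differences of MSX2, WNT5A, BMP2 and LIFR kept their sign throughout, and with 1 cow left out ranged from 0.02 to 0.35, from -0.46 to -0.11, from 0.03 to 0.44 and from 0.16 to 0.38. Leaving out each cow in turn moved MSX1 between -1.71 and 0.085, FOXA2 between -0.89 and 0.41, IHH between -2.59 and 0.18 and WNT7A between -1.55 and 0.12, each positive only without 5 mM replicate 1, and gave 3 to 7 of the 8 genes higher with 5 mM. FOXA2 was also positive with array weights (0.26) and with the filter on all 8 arrays (0.19), which left only its second probe. That filter left no WNT7A probe. Array weights, 0.194 for 5 mM replicate 1, gave MSX1 -0.13, IHH -0.23 and WNT7A -0.25. Normexp gave FOXA2 -0.09, WNT7A -0.21 and BMP2 0.42. The mean over probes gave IHH -0.90. With no filter, which brought in LIF and WNT4, 5 of 10 genes were higher, where 57.2% of all probes were. Of these genes 1, WNT4, had an unadjusted p under 0.05 in limma's test, on signals near background. So had 1067 of 43653 probes. The median of the other WNT ligands was -0.39 with normexp, -0.24 with no filter, -0.47 with the filter on all 8 arrays and -0.52 with array weights. That of the BMP targets and antagonists was -0.18 with normexp and with no filter and -0.25 with array weights, and that of the hedgehog genes was -0.15 with slide as a block. A median shift moved the median of all probes from 0.02 to 0.08 and the share higher from 53.1% to 60.7%. Same-numbered cows correlated in their deviations at 0.40, 0.36, -0.30 and 0.31. Those numbered 1, 2 and 4 shared a slide and those numbered 3 did not, so number and slide cannot be told apart here. The numbers were not taken to pair the cows. With the replicate block MSX1 differed by -1.18, and 1221 probes had an unadjusted p under 0.05 in limma's test. With slide as a block there were 1026. Signals near background limit LIF, WNT4, WNT7A and the dimmest FOXA2 value.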
